A study of Anolis sagrei with 10 samples.

Results

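The Notch pathway genes described here are 7 of 10 listed ligands, receptors, modulators and targets: the ligands JAG1, JAG2, DLL1 and DLL4, the receptor NOTCH3, the fringe enzyme LFNG and the target HEY1. They were chosen by name, as the listed symbols that the gene name column of the authors' deposited table pairs with an identifier, out of 12476 identifiers with a symbol among 25920 in all. NOTCH1, NOTCH2 and HES1 were also listed and are not analysed here. All 7 had enough counts to be tested, among 15595 tested genes. The list was made with earlier results of these data known, so counts for these genes set against all tested genes are descriptive only.

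The study sequenced RNA from whole limb buds of a lizard, the brown anole Anolis sagrei. The embryos were wild type and at stage 7, and 5 forelimb and 5 hindlimb libraries carry the replicate numbers 1 to 5 in both limbs. No treatment, transgene or mutant is in the series, and the labels do not say how many embryos a library holds. The comparison asks how forelimb and hindlimb expression differ at this stage. Total counts per library ran from 41808148 to 54998469. The limb labels were checked against TBX5, a forelimb factor, which lay between 428 and 554 CPM (counts scaled to library size) in forelimb and between 1.002 and 2.88 CPM in hindlimb. The hindlimb factors TBX4 and PITX1 did not exceed 0.550 CPM in any forelimb library and were at 25.8 CPM or more in every hindlimb library. Of 12 limb mesenchyme markers, 7 had a symbol in the table, and their summed level was 393 to 551 CPM in forelimb and 396 to 556 CPM in hindlimb. Paired by replicate number, this sum was higher in forelimb in 1 of 5 pairs.

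Notch signalling passes between touching cells. A ligand of the Jagged or Delta type on one cell binds a Notch receptor on its neighbour, ADAM proteases and then gamma-secretase cut the receptor, and the freed intracellular part joins RBPJ and Mastermind proteins at target genes such as those of the HES and HEY families. Fringe enzymes add sugar to the receptor and so change which ligands it answers. In mouse limbs, Jag2 acts in the apical ectodermal ridge, where its loss leaves digits joined, and in vertebrate embryos Dll4, Notch receptors and Hey genes act in growing vessels.

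None of the 7 genes reached an adjusted p under 0.05 for the difference between limbs (edgeR's quasi-likelihood test blocked on the replicate number, Benjamini-Hochberg). Of all tested genes 1.33% did (208 genes), a share so low that 0 of 7 does not set these genes apart. At an unadjusted p under 0.05 there were 4 of 7, namely DLL1, NOTCH3, JAG2 and LFNG, each with a higher level in forelimb. The background at that threshold was 13.8% in either direction and 7.44% for a higher forelimb level. DESeq2 and limma voom with the same block also called 0 of the 7, against 4.14% and 1.48% of all genes with an adjusted p. Each put 4 of the 7 under an unadjusted p of 0.05, against 14.3% and 14.2% of all genes. Without the block 0 of the 7 were called, against 0.199% of all genes, and 2 had an unadjusted p under 0.05, against 3.95%. The log2 fold changes, which are forelimb over hindlimb throughout, were above 0 for 6 of the 7, against 7804 of the 15595 tested genes. Their median was 0.19, and that of all tested genes was 0.00. In whole buds, a lower level can come from fewer cells of a type or from less RNA per cell, and these cannot be told apart.

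**Figure D1:**
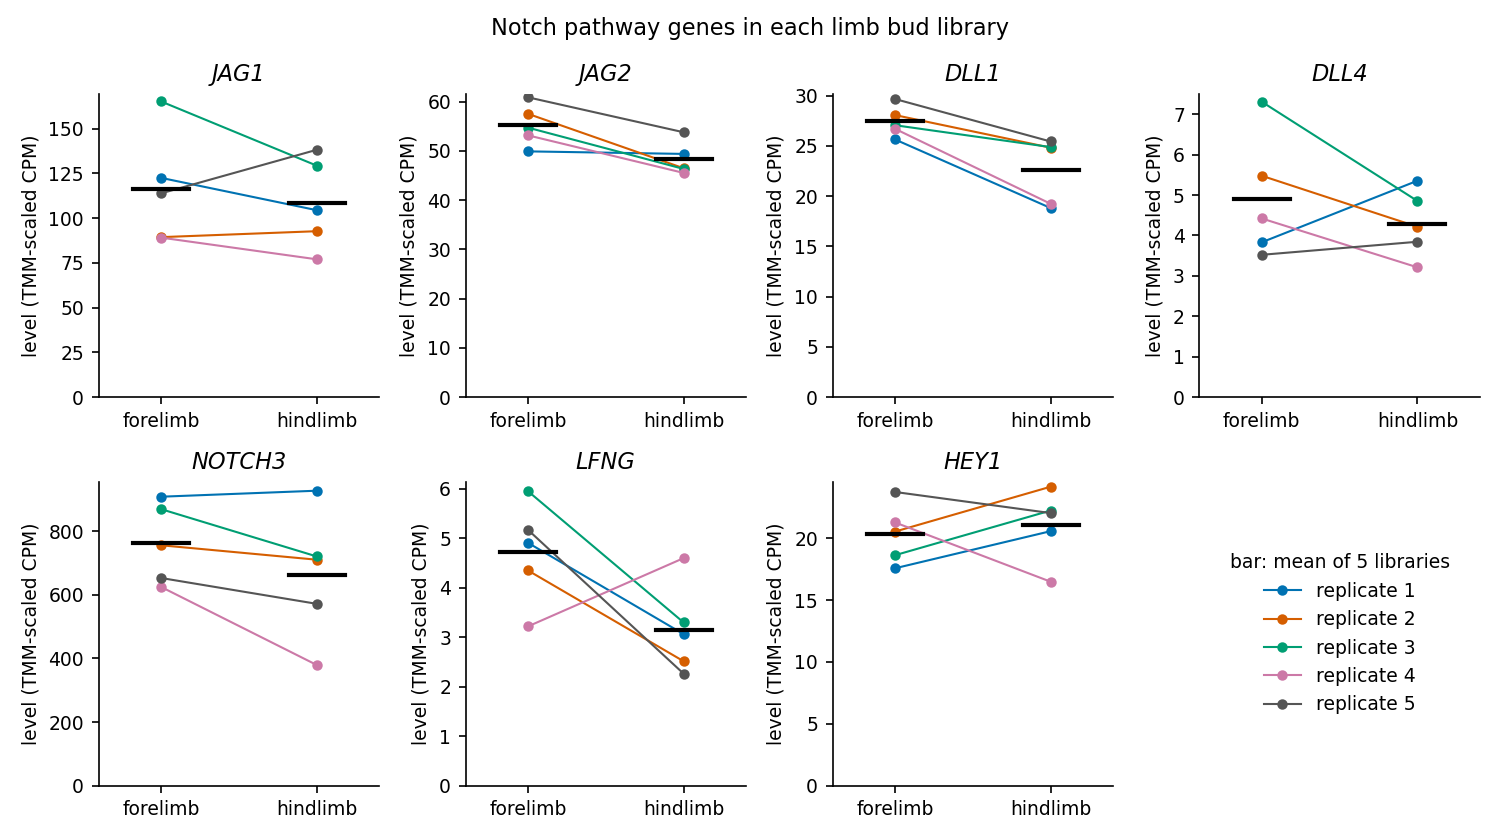
Level of each gene (TMM-scaled CPM, vertical axis from 0) in the forelimb and hindlimb library of each replicate number, joined by a line, with black bars for the mean of 5 libraries. DLL1 and JAG2 fall from forelimb to hindlimb in 5 of 5 pairs, while the lines of JAG1, DLL4 and HEY1 cross.

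The Delta-type ligand DLL1, which in mouse is needed for somite formation, had the smallest p of the 7 genes. Its level in forelimb replicates 1 to 5 was 25.6, 28.1, 27.1, 26.7 and 29.7 CPM, and in hindlimb replicates 1 to 5 it was 18.8, 24.8, 24.9, 19.2 and 25.4 CPM. Every forelimb library thus lay above every hindlimb library, though the lowest forelimb and highest hindlimb values were close together. Of all tested genes, 1.19% showed such a gap between the limbs. The means were 27.4 CPM ± 1.52 (SD, n = 5) and 22.6 CPM ± 3.31 (SD, n = 5). In the paired fit the log2 fold change was 0.29 ± 0.10 (SE, edgeR adjusted p 0.201, unadjusted 0.0113). The 95% interval ran from 1.05-fold to 1.41-fold. Within pairs the forelimb level was 1.36, 1.13, 1.09, 1.39 and 1.17 times the hindlimb level, so replicates 1 and 4, whose hindlimb libraries were the lowest, gave the widest gaps. Of 12 markers of somite and presomitic mesoderm, where DLL1 is also known, 7 had a symbol. Their summed levels were 77.0 to 90.2 CPM in forelimb and 71.8 to 93.2 CPM in hindlimb. EdgeR called 0 of the 7, against 1.33% of all tested genes.

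JAG2, a Jagged-type ligand, was likewise higher in forelimb in 5 of 5 pairs. Its level was 49.9, 57.5, 54.7, 53.1 and 60.9 CPM in forelimb replicates 1 to 5, and 49.4, 46.5, 46.3, 45.5 and 53.8 CPM in hindlimb replicates 1 to 5. The limbs overlapped only because hindlimb replicate 5 reached the level of the lower forelimb libraries. A forelimb level above the hindlimb level in 5 of 5 pairs was found in 7.78% of all tested genes. The means were 55.2 CPM ± 4.19 and 48.3 CPM ± 3.39 (SD, n = 5 each). In the paired fit the log2 fold change was 0.19 ± 0.08 (SE, edgeR adjusted p 0.270). The 95% interval ran from 1.02-fold to 1.28-fold. Of 19 markers of ectoderm and apical ridge, where JAG2 is known in mouse limbs, 14 had a symbol. They summed to 729 to 909 CPM in forelimb and 661 to 1006 CPM in hindlimb. Hindlimb replicate 4 held the 1006 CPM, and the other hindlimb libraries, at 661 to 720 CPM, lay below every forelimb library. None of the 14 was called by edgeR, against 1.33% of all tested genes. Of these markers 12 had a log2 fold change above 0, with a median of 0.06. The sum was higher in forelimb in 4 of 5 pairs, and its part in the JAG2 values was not tested.

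JAG1, the other Jagged-type ligand, varied with the replicate number much more than with the limb. Forelimb replicates 1 to 5 were at 123, 89.4, 165, 89.1 and 114 CPM, and hindlimb replicates 1 to 5 at 104, 92.7, 129, 77.0 and 138 CPM. Replicate 4 was the lowest library of both limbs, and the ranges of the limbs overlapped from 89.1 to 138 CPM. Differences between replicate numbers held 85.5% of the variance of log2 CPM and the limbs 2.04%. The log2 fold change was 0.09 ± 0.09 (SE; edgeR adjusted p 0.697), and the 95% interval of 0.936-fold to 1.22-fold leaves room for a small difference either way.

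DLL4, a Delta-type ligand known from vessel tips, was measured from few reads, 125 to 313 per library. Its level was 3.83, 5.48, 7.31, 4.42 and 3.52 CPM in forelimb replicates 1 to 5 and 5.35, 4.21, 4.85, 3.21 and 3.84 CPM in hindlimb replicates 1 to 5. It was higher in forelimb in 3 pairs and in hindlimb in 2. The log2 fold change was 0.17 ± 0.21 (SE; edgeR adjusted p 0.791), and the 95% interval ran from 0.823-fold to 1.53-fold. The endothelium list, of which 15 of 24 markers had a symbol, summed to 224 to 309 CPM in forelimb and 205 to 334 CPM in hindlimb. This sum was higher in forelimb in 2 of 5 pairs. Of its 14 tested genes 0 were called by edgeR and 1 by DESeq2, against 1.33% and 4.14% of all genes. At an edgeR unadjusted p under 0.05 there were 5, against 13.8% of all genes. Of these, 3 had a higher forelimb level and 2 a higher hindlimb level. Without the block 0 of the 14 had an edgeR unadjusted p under 0.05, against 3.95% of all genes. Log2 fold changes were above 0 for 12 of the 14 and the median was 0.26, the same direction as DLL4. Their part in the DLL4 values was not tested.

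The receptor NOTCH3, known in mammals from the mural cells of vessels, followed the replicate number closely. Forelimb replicates 1 to 5 were at 908, 756, 869, 625 and 653 CPM, and hindlimb replicates 1 to 5 at 927, 710.3, 721, 379 and 572 CPM. The 5 replicate numbers stood in the same order in both limbs, with replicate 1 highest and replicate 4 lowest. Within pairs the forelimb level was 0.980, 1.06, 1.21, 1.65 and 1.14 times the hindlimb level, so the gap was widest in replicate 4. The means were 762 CPM ± 126 and 662 CPM ± 203 (SD, n = 5 each). The log2 fold change was 0.25 ± 0.09 (SE; edgeR adjusted p 0.255), and the 95% interval ran from 1.03-fold to 1.36-fold. Without replicate 4 in both limbs the log2 fold change was 0.13 (edgeR adjusted p 0.552). With no filter on low counts the edgeR adjusted p was 0.0145. Over the 13 alternatives tried the adjusted p ran from 0.0145 to 0.99997.

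Replicate 4 also differed from the other numbers in marker levels. Its hindlimb library had the lowest TMM scaling factor, 0.928, against 0.984 to 1.03 in all other libraries. Mural cell markers, 7 of 9 with a symbol, summed to 116 CPM in forelimb replicate 4 and 149 to 173 CPM in the other forelimb libraries. In hindlimb they summed to 96.9 CPM in replicate 4 and 165 to 175 CPM in the others. Markers of neural and Schwann cells, of somite and presomitic mesoderm, and of blood were also lowest in replicate 4 of each limb. Their replicate 4 sums were 40.4, 77.0 and 44.5 CPM in forelimb and 24.5, 71.8 and 33.6 CPM in hindlimb. Endothelium markers were lowest in replicate 4 in hindlimb only, at 205 CPM. Myoblast and limb mesenchyme markers were not lowest there in either limb. Cartilage markers, 8 of 13 with a symbol, summed to 1142 CPM in hindlimb replicate 4 and 2072 to 2853 CPM in the other hindlimb libraries, but forelimb replicate 4, at 1654 CPM, lay within the 1604 to 2575 CPM of the other forelimb libraries. Ectoderm and apical ridge markers went the other way, with 1006 CPM in hindlimb replicate 4 against 661 to 720 CPM in the others. Between limbs, the cartilage sum was higher in forelimb in 1 of 5 pairs, that of replicate 4. The log2 fold change was below 0 for 7 of the 8 cartilage genes. EdgeR called 0 of them and DESeq2 and limma voom 1 each, against 1.33%, 4.14% and 1.48% of all genes. The part of these differences in the NOTCH3 values was not tested.

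**Figure D2:**
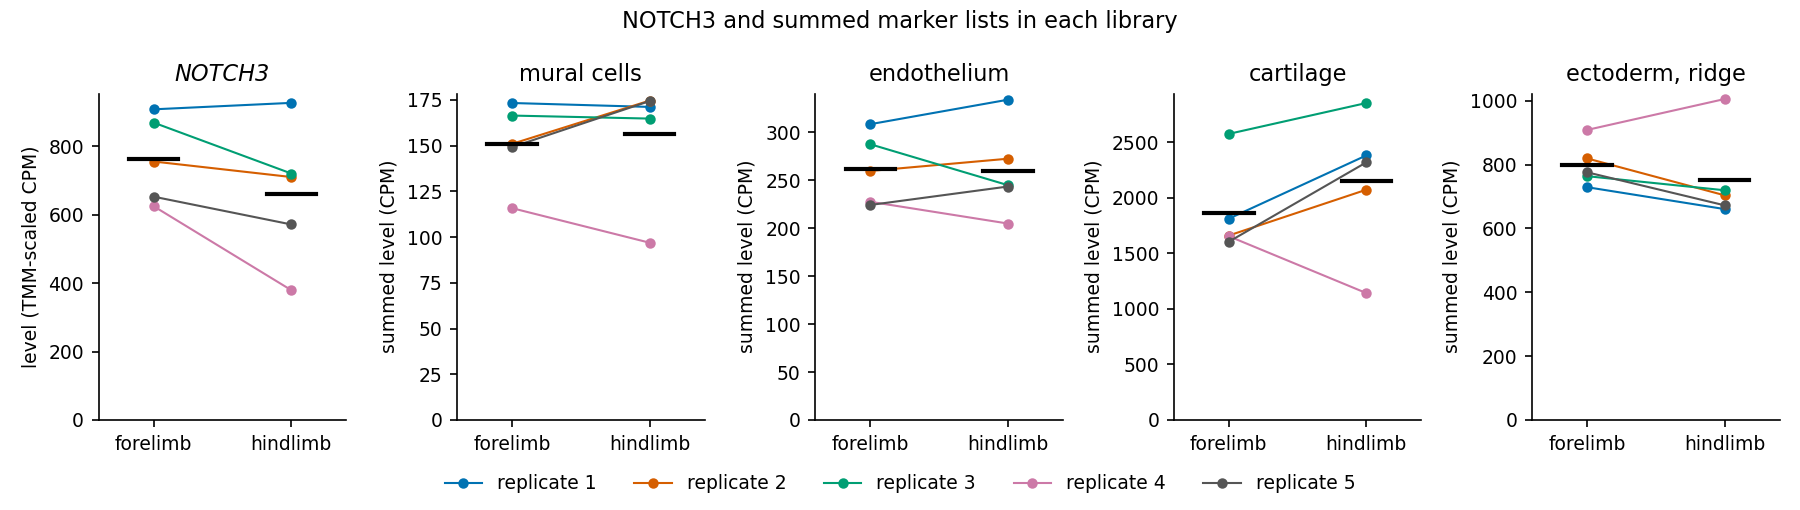
Level of NOTCH3 (TMM-scaled CPM) and summed CPM of mural cell, endothelium, cartilage, and ectoderm and apical ridge markers, by limb, with libraries of the same replicate number joined and black bars for the means. Replicate 4 is lowest for NOTCH3 and mural cell markers and highest for ectoderm markers in both limbs.

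LFNG, a fringe enzyme that in mouse is needed for regular somites, had the largest log2 fold change of the 7 genes and the lowest counts, 106 to 255 per library. Forelimb replicates 1 to 5 were at 4.91, 4.35, 5.95, 3.22 and 5.17 CPM, and hindlimb replicates 1 to 5 at 3.06, 2.51, 3.30, 4.60 and 2.26 CPM. Replicate 4 ran against the other numbers, with the lowest forelimb and the highest hindlimb value. In the other 4 pairs the forelimb level was 1.60, 1.73, 1.80 and 2.28 times the hindlimb level. The means were 4.72 CPM ± 1.02 and 3.15 CPM ± 0.911 (SD, n = 5 each). In the paired fit the log2 fold change was 0.60 ± 0.25 (SE, edgeR adjusted p 0.301). The 95% interval ran from 1.05-fold to 2.21-fold. Without replicate 4 the log2 fold change was 0.88 (edgeR adjusted p 0.134). That was the largest of the 5 fits that left out a replicate number, and the smallest was 0.46. The edgeR unadjusted p was under 0.05 in 2 of these 5 fits.

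HEY1, a transcriptional repressor switched on by Notch, was the only gene of the HES and HEY families among the 7 and showed no steady direction. Forelimb replicates 1 to 5 were at 17.6, 20.5, 18.6, 21.3 and 23.7 CPM, and hindlimb replicates 1 to 5 at 20.6, 24.2, 22.2, 16.5 and 22.04 CPM. The forelimb level was above the hindlimb level in replicates 4 and 5 and below it in replicates 1, 2 and 3. The log2 fold change was -0.05 ± 0.12 (SE; edgeR adjusted p 0.8996), and the 95% interval of 0.811-fold to 1.15-fold bounds a difference in either direction.

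**Figure D3:**
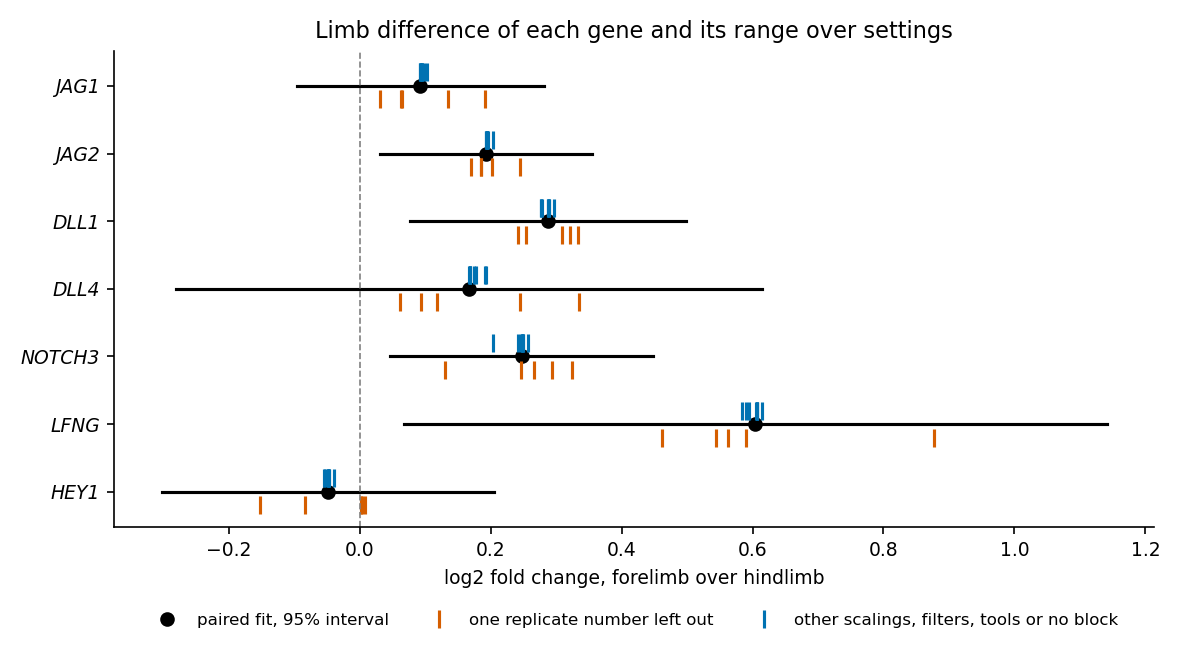
Log2 fold change of each gene, forelimb over hindlimb, with its 95% interval from the paired edgeR fit (black), without each replicate number in turn (orange ticks) and under other scalings, filters, tools or no block (blue ticks). LFNG and DLL4 move most when a replicate number is left out, and HEY1 lies around 0. LFNG then runs from 0.46 to 0.88 (without replicate 4). DLL4 runs from 0.06 (without replicate 3) to 0.34 (without replicate 1).

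Across the 7 genes the share of variance held by the limbs ranged widely. It was 51.8% for JAG2, 49.1% for DLL1 and 45.6% for LFNG, and at most 11.7% for the other 4 genes. The median over all tested genes was 5.56% between limbs and 65.9% between replicate numbers. JAG1 with 85.5% and NOTCH3 with 75.8% lay above that median for replicate numbers, and LFNG with 11.3% lay far below it. These shares describe 10 libraries, in which the limbs carry a single degree of freedom.

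**Figure D4:**
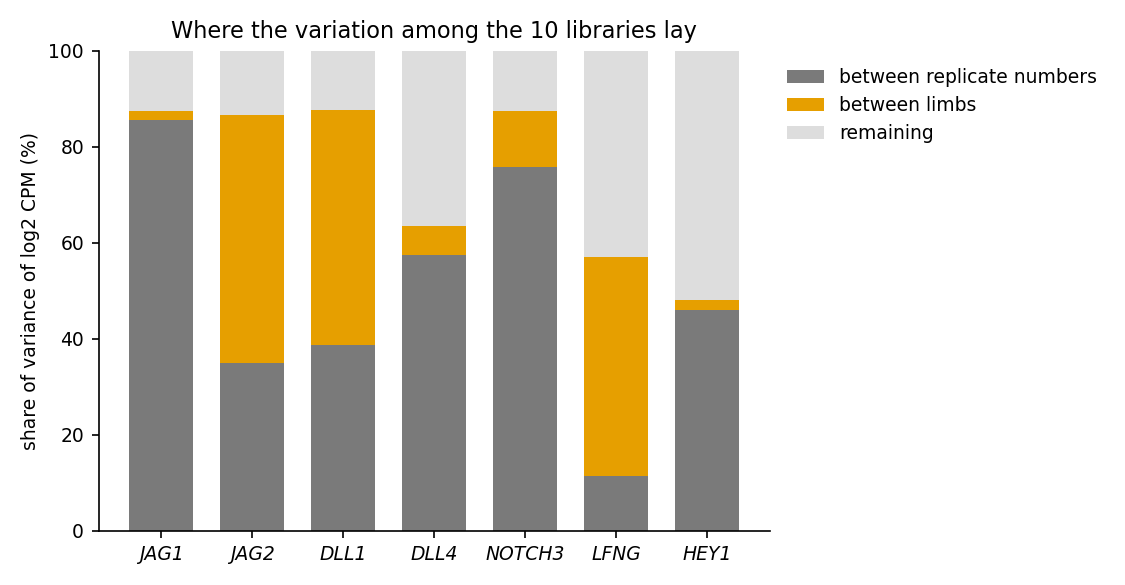
Share of the variance of log2 CPM (percent, vertical axis) that lay between replicate numbers, between limbs, and in neither, for each gene over the 10 libraries. The limb share is largest for JAG2 (51.8%) and DLL1 (49.1%) and smallest for HEY1 (1.99%) and JAG1 (2.04%).

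The gene whose profile over the 10 libraries was closest to that of DLL1, among 9478 tested genes with a symbol and a mean of at least 1 CPM, was MMP2, a matrix metalloproteinase. After centring, the profiles differed by 0.0654 log2 units per library on average. NCKIPSD followed with 0.0698 and PRR5 with 0.0762. None of the 3 was called between the limbs, and MMP2 had an edgeR adjusted p of 0.0717. The 3 genes were picked for likeness to DLL1 over these same 10 libraries, so their limb differences are not independent of its own.

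Beyond these 7 genes, 44 of 63 other listed pathway genes had a symbol and 43 were tested. A single gene was called, DNER, which was higher in hindlimb, so 2.33% of the 43 were called against the background of 1.33%, or 0.628% for a higher hindlimb level alone. DNER encodes a transmembrane protein with EGF repeats that was described as a Notch ligand in mouse neurons. It was at 11.6, 14.5, 14.0, 11.2 and 11.8 CPM in forelimb replicates 1 to 5 and at 23.5, 18.6, 19.1, 18.8 and 19.0 CPM in hindlimb replicates 1 to 5. Every hindlimb library lay above every forelimb library. The log2 fold change was -0.65 ± 0.12 (SE; edgeR adjusted p 0.0193), and the call was lost without the block (0.109), where 31 genes of the series were called. It was also lost without replicate 2 (0.0613), replicate 3 (0.0794) or replicate 4 (0.104). The authors' deposited table gave a log2 fold change of -0.54 for DNER with an adjusted p of 0.000361. Neural and Schwann cell markers summed to 40.4 to 58.4 CPM in forelimb and 24.5 to 60.5 CPM in hindlimb over 7 of 12 markers. Of the 6 tested, edgeR called 0, against the 1.33% of all tested genes. Log2 fold changes were above 0 for 5 of the 6, with a median of 0.13, the opposite direction to DNER. The sum was higher in forelimb in 2 of 5 pairs. The part of these markers in the DNER values was not tested.

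Among ligands and receptors related to the 7 genes, DLK1, a ligand-like protein that lacks the usual receptor-binding domain, averaged 17.3 CPM ± 2.60 in the forelimb libraries and 13.6 CPM ± 2.70 in the hindlimb libraries (SD, n = 5 each). Its log2 fold change was 0.36 ± 0.12 (SE; edgeR adjusted p 0.196). Of the 50 tested genes of all lists, the limbs did not overlap for 4, which were DLL1, DNER, NEURL1B and DLK2, against the 1.19% of all tested genes given above. DLK2, a relative of DLK1 named for this reason after its values were seen, averaged 12.4 CPM ± 1.38 in the forelimb libraries and 9.22 CPM ± 1.11 in the hindlimb libraries (edgeR adjusted p 0.196).

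NEURL1B, an E3 ubiquitin ligase that acts on Notch ligands, came closest to the threshold among the listed pathway genes with a higher forelimb level. It was at 56.6, 52.4, 60.7, 53.1 and 54.6 CPM in forelimb replicates 1 to 5 and at 46.1, 43.2, 43.2, 41.2 and 47.9 CPM in hindlimb replicates 1 to 5, with no overlap. The log2 fold change was 0.32 ± 0.08 (SE), and the adjusted p was 0.0573 by edgeR and 0.00976 by DESeq2. Over its 13 alternatives the adjusted p ran from 0.00976 to 0.455. DTX1, another E3 ligase of the pathway, had a log2 fold change of 0.22 ± 0.11 (edgeR adjusted p 0.399). Of the 11 tested genes of ubiquitination and endocytosis, 0 were called by edgeR, 1 by DESeq2, and 1 had an edgeR unadjusted p under 0.05. The shares over all genes were 1.33%, 4.14% and 13.8%.

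The nuclear list held 12 tested genes, of which 0 were called by edgeR and 2 by DESeq2. The called shares over all genes were 1.33% by edgeR and 4.14% by DESeq2. At an edgeR unadjusted p under 0.05 there were 6, 5 with a higher forelimb level and 1 with a higher hindlimb level. The background at that threshold was 13.8% in either direction and 7.44% for a higher forelimb level. Without the block 0 of the 12 had an edgeR unadjusted p under 0.05, against 3.95% of all genes. SPEN, a corepressor that binds RBPJ, averaged 286 CPM ± 36.9 in the forelimb libraries and 229 CPM ± 54.8 in the hindlimb libraries. The log2 fold change of SPEN in the paired fit was 0.34 ± 0.08 (SE). Its edgeR adjusted p was 0.0603 and its DESeq2 adjusted p 0.00648, and it was higher in forelimb in 5 of 5 pairs. Without the block the edgeR adjusted p of SPEN was 0.99997. RBPJ itself, the DNA-binding partner of the receptors, was named after its values were seen. It averaged 32.9 CPM ± 2.46 in the forelimb libraries and 36.8 CPM ± 1.44 in the hindlimb libraries (edgeR adjusted p 0.438).

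The remaining steps of the pathway held no gene called by edgeR, against 1.33% of all tested genes. Of 6 tested genes of receptor cleavage, ADAM10, the protease that makes the first cut after ligand binding, had a log2 fold change of 0.19 ± 0.07 (SE; edgeR adjusted p 0.218). PSEN2, a catalytic subunit of gamma-secretase, had a log2 fold change of -0.13 ± 0.09 (edgeR adjusted p 0.554). Of 5 tested glycosylation genes, EOGT, which adds GlcNAc to EGF repeats, was at -0.27 ± 0.12 (edgeR adjusted p 0.363). RFNG, a fringe enzyme related to LFNG, was at -0.09 ± 0.07 (edgeR adjusted p 0.632), the opposite sign to LFNG. Of 5 other tested targets, HEY2, a relative of HEY1, was at 0.36 ± 0.19 (edgeR adjusted p 0.410), and MYC at 0.16 ± 0.11 with 0.592.

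**Figure D5:**
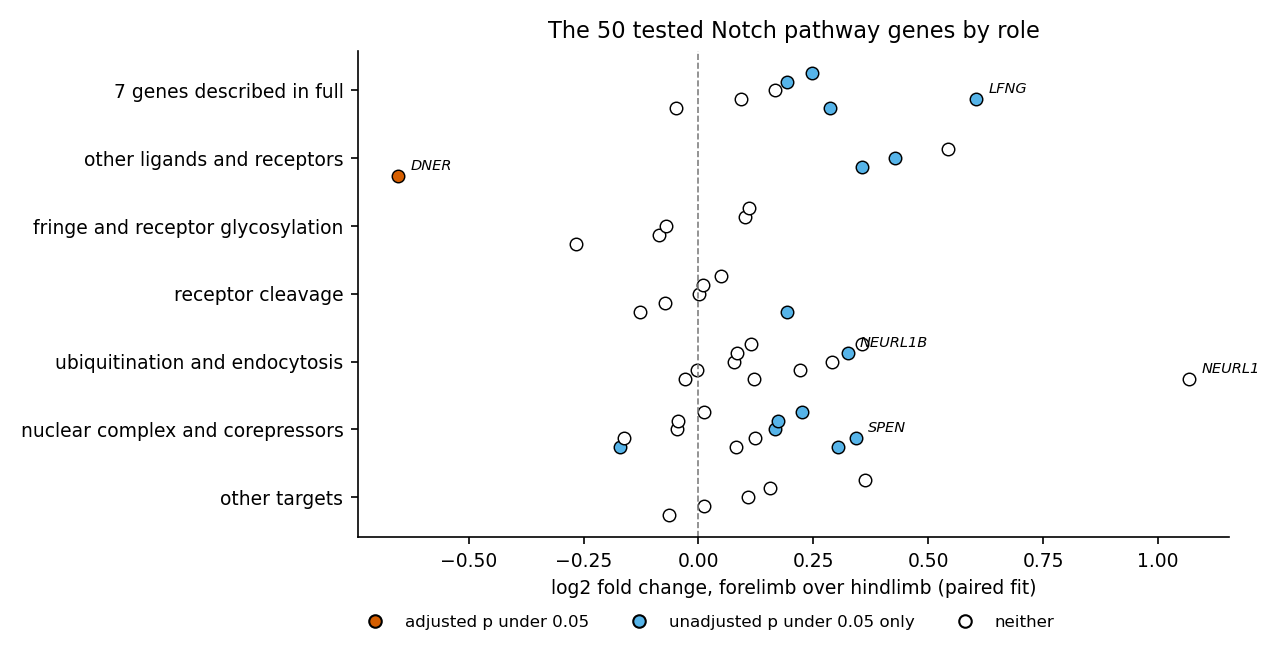
Log2 fold change, forelimb over hindlimb, of the 50 tested Notch pathway genes from the paired edgeR fit, in rows by role, with points displaced vertically only for legibility. DNER at -0.65 is the single gene at an adjusted p under 0.05 (orange), and blue points have an unadjusted p under 0.05 only.

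The authors' deposited table gave none of the 7 genes an adjusted p under 0.05, where 0.621% of the genes with an adjusted p there had one. Its smallest unadjusted p among them were 0.0189 for LFNG and 0.0329 for DLL1. For NOTCH3 and JAG2 the unadjusted p there was 0.317 and 0.0518. The paired edgeR fit gave 0.0197 and 0.0233, and edgeR without the block gave 0.320 and 0.0616. Log2 fold changes in the authors' deposited table ran from -0.04 for HEY1 to 0.34 for LFNG, the same genes that stood at the ends of the range here. For LFNG the SE there was 0.15, while edgeR without the block gave 0.58 ± 0.25 (SE). Both the fold change and its error were thus smaller in the authors' table. Whether its fold changes were drawn towards 0 in fitting was not tested, so their sizes are not compared with those here.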

How the data were processed

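Per the labels' protocols, RNA of paired buds was extracted (mirVana) and turned into strand-specific polyadenylated RNA libraries (TruSeq). STAR, featureCounts, FastQC and DESeq2 are named in the submitters' processing notes. Their versions, the build, the annotation, the strand setting and the treatment of shared reads are not given in the sources used here, so counts of overlapping or near-identical genes are uncertain. The deposited count tables hold raw counts per gene, 1 library each. The authors' deposited table holds a normalised mean count (a signal), per the file headers, a log2 fold change and its error, a test statistic (a score) and p-values.

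Counts were fitted whole in R 4.3.3 with edgeR 4.0.16 (quasi-likelihood, robust, TMM, default filter with minimum count 10 and minimum total 15), with the replicate number as a block, adjusted by Benjamini-Hochberg. SE and 95% intervals were derived from fold changes and F statistics. Variance shares and profile distances used log2 CPM with prior count 2. Gene lengths were not used, so levels are not compared between genes. Alternatives were DESeq2 1.42.0, limma 3.58.1 voom, no block, other scalings and filters, equal depth, and leaving out each replicate number. The fits were also run on simulated data, with larger differences than most of those described here. That run does not show how often differences of this size would be called.

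Deviations from the limb mean over 9747 genes correlated at 0.51 to 0.75 between limbs for equal replicate numbers and at -0.41 to 0.12 for different ones. Pairing by replicate number was a fixed choice for these genes, as both limbs carry the same numbers, and did not rest on these correlations. The correlations come from the same counts that were tested, so they are not an independent check of the pairing. No label says what a number marks or whether replicates are separate embryos. If they are not, p-values measure only the spread between these samples.

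The members and lists were chosen with earlier results of these data known. Named besides the 7 genes were called pathway genes, the 2 genes of smallest p in each role list, and the 3 closest profiles to the member of smallest p. For the nuclear list, a single one of its pair is reported here. Symbols came from the deposited table alone. Ranges of summed marker levels not given elsewhere were 273 to 425 CPM in forelimb and 334 to 388 CPM in hindlimb for myoblasts. For blood they were 44.5 to 180.5 CPM in forelimb and 33.6 to 63.5 CPM in hindlimb. Forelimb replicate 1 held the 180.5 CPM, and the other forelimb libraries reached at most 61.0 CPM. Neither list had a gene called by edgeR, against 1.33% of all tested genes, while DESeq2 called 2 of 10 myoblast genes, against 4.14%. Log2 fold changes were above 0 for 6 of those 10 and for 7 of 8 tested blood genes. Of the 7 tested limb mesenchyme genes, edgeR called 0 and DESeq2 and limma voom 1 each. The shares over all genes were 1.33%, 4.14% and 1.48%.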

Additional observations from a re-analysis of the deposited data

Results flagged for a closer look

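In each limb the gap between the highest or lowest library and its nearest neighbour was compared with the range of the 5 libraries, for 40 sets of values: total counts and the levels of the named Notch pathway genes. By Dixon's criterion for 5 samples (a gap above 0.71 of the range) 2 sets stood out, and chance alone gives about 1 in 20. DNER reached 23.5 CPM in hindlimb replicate 1, whereas the remaining hindlimb libraries held 18.6 to 19.1 CPM. Total counts were 54998469 in forelimb replicate 4 and 42151036 to 45608067 in the other forelimb libraries. None of the 7 genes passed the limit in either limb.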

How the results depend on the processing

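The 13 alternatives were chosen together with the paired fit, and left the median log2 fold change of the 7 genes between 0.13 and 0.25, against 0.19. Of 91 gene and setting combinations for the 7 genes, 87 kept direction and side of the threshold. NOTCH3 was called with no filter on low counts, and HEY1 changed sign in 3 fits that left out a replicate number (log2 fold changes -0.152 to 0.00751 over the 5 such fits). Without the replicate block, which pairs the libraries, 31 genes of the series and 0 pathway genes were called, against 208 and 1 with it. DNER was the only named gene whose call the block changed. With no filter on low counts 697 genes were called, 5 of them in the pathway and 1 of the 7 genes; with DESeq2 545 and 4, NEURL1B and SPEN among them. Leaving out a replicate number in both limbs gave 58 to 330 calls in the series, 0 to 2 in the pathway and 0 among the 7 genes. SPEN was called without replicate 1 (edgeR adjusted p 0.0396). The cause of these shifts was not tested; the fits without a number also hold fewer samples. LFNG and DLL4, with counts of 106 to 313 per library, had the widest 95% intervals of the 7. The part of the low counts in that width was not tested.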
